A study of Mus musculus with 6 samples.

Results

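The 10 genes described here are 7 Eph receptors (Epha2, Epha3, Epha4, Epha5, Epha7, Ephb2 and Ephb3) and 3 ephrins (Efna1, Efnb1 and Efnb2), chosen by gene name from the 55357 genes of an RNA-seq table of mouse cortical astrocyte cultures. All 10 names matched 1 gene each, and all 10 passed the filter of a mean of at least 10 normalized counts that was required for testing, as did 15280 genes in all. The source tissue was cortex of C57BL/6 mouse embryos, taken at embryonic day 18. In all, 3 cultures (KE) were transfected with a plasmid for FLAG-tagged BRAF K499E under the CMV promoter, and 3 cultures (NT) received no plasmid. RNA was collected at 48 hours after transfection. BRAF K499E is a variant found in RASopathy, a group of disorders of RAS/ERK signaling, and the comparison asks how its expression changes astrocyte transcripts. CMV is a general promoter that does not select astrocytes, and no culture given BRAF WT or an empty plasmid was analysed here, so the plasmid and its insert cannot be told apart. The labels number the cultures 1 to 3 in each group without saying whether they came from separate litters, so the p-values measure the spread between these cultures.

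Eph receptors are the largest family of receptor tyrosine kinases, and their ligands, the ephrins, are themselves held on the cell surface, so that signaling passes between cells that touch. EphA receptors mainly bind ephrin-A ligands, which are tethered by a lipid anchor, and EphB receptors mainly bind ephrin-B ligands, which cross the membrane and can signal back into the cell that carries them. In the brain the family is known for guiding axons, setting tissue boundaries and shaping synapses, and astrocytes carry both receptors and ephrins.

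In the KE cultures, 3 EphA receptors and both ephrin-B genes of the group were upregulated, and no member was downregulated. Epha2, Epha4 and Epha5 were each 1.38- to 1.39-fold higher, Efnb2 was 1.24-fold higher and Efnb1 1.14-fold higher. The other 5 (Epha3, Epha7, Ephb2, Ephb3 and Efna1) did not pass an adjusted p of 0.05. Upregulation was thus called for 5 of 10 members, where 25.3% of all tested genes were called higher in KE and 51.3% were called in either direction. In these 5 members all 3 KE values were above all 3 NT values, as in 30.1% of all tested genes, and 59.9% of all tested genes had no overlap in either direction. No member passed the additional requirement of an absolute log2FC above 0.5, which 26% of all tested genes met. The median log2FC of the 10 members was 0.33, and that of all tested genes was 0.00. Over all 19 tested genes of the family, the 5 upregulated genes made up 26.3%, near the share of all tested genes, and the median log2FC was 0.07. These are bulk cultures, in which fewer cells of a type and less RNA per cell cannot be told apart.

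**Figure D1:**
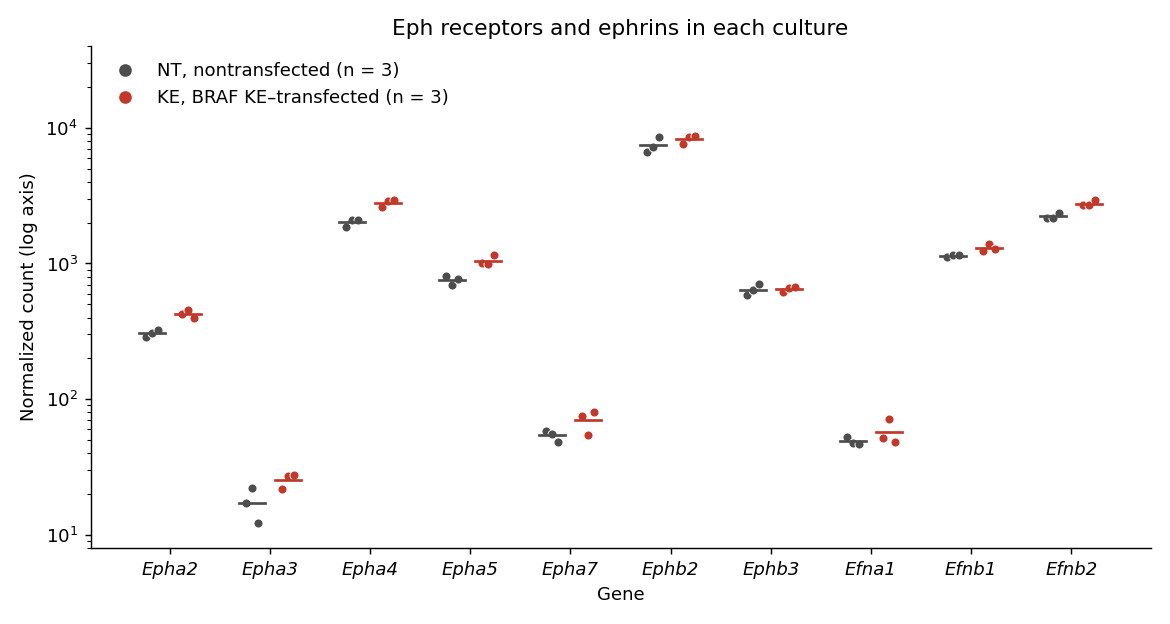
Normalized count of each member (log axis) in the 3 NT cultures (gray) and the 3 KE cultures (red), with each point 1 culture and each line the group mean. The groups do not overlap in Epha2, Epha4, Epha5, Efnb1 and Efnb2, and they do in the other 5 genes.

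Normalized totals lay between 30472429 and 30895529 in the 6 cultures, and the approximate depth, from the most frequent low value taken as 1 read, between 24500000 reads in KE replicate 2 and 34100000 reads in KE replicate 1. Braf, the transfected gene, was 34933 to 40978 in KE and 811 to 946 in NT. Astrocyte markers differed widely in level. Gfap was at a mean of 31508 in KE and 17292 in NT, and S100b at 17.7 in KE and 26.7 in NT. Gja1, the 1 marker called lower, was at a mean of 4380 in KE and 6014 in NT. Of 10 astrocyte markers, 7 were higher and 1 lower in KE, with a median log2FC of 0.41, none was at 0 in every culture, and their summed normalized counts were 149545 to 151780 in KE and 108195 to 113276 in NT, a ratio of 1.37. All 10 markers of microglia and macrophages were lower in KE, none was at 0 in every culture, and their sum was 4536 to 6287 in KE and 36937 to 42345 in NT. Of all tested genes, 25.3% were called higher in KE and 26% lower. The part of these marker shifts in the results for Eph receptors and ephrins was not tested.

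Epha4, a receptor known for binding ephrins of both classes, spans bases 77343822 to 77492816 of chromosome 1 (GRCm39, minus strand). KE replicates 1, 2 and 3 had 2613, 2867 and 2923 normalized counts, and NT replicates 1, 2 and 3 had 1859, 2106 and 2090. The lowest KE culture was above the highest NT culture. The mean rose from 2018 ± 138 (SD, n = 3) to 2801 ± 165 (SD, n = 3), a log2FC of 0.47 (95% interval 0.32 to 0.63, adjusted p = 0.000217 from limma).

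Epha5 (chromosome 5, 84202620 to 84565348, minus strand), a receptor best known from axon guidance, was 1008, 987 and 1151 in KE and 804, 692 and 765 in NT. Every KE culture was again above every NT culture. Its mean went from 754 ± 56.7 (SD, n = 3) up to 1049 ± 89.0 (SD, n = 3), with log2FC 0.48 (95% interval 0.28 to 0.67, adjusted p = 0.000898 from limma). Epha2 (chromosome 4, 141028540 to 141056695, plus strand), a receptor common in epithelia and known as a transcript that RAS/ERK signaling can raise, was 421, 456 and 395 in KE and 286, 310 and 323 in NT. Its groups were apart, at 424 ± 30.2 in KE against 306 ± 18.6 (both SD, n = 3), with log2FC 0.47 (95% interval 0.25 to 0.69, adjusted p = 0.00248 from limma). The sizes of these 3 differences lay close together, and of all tested genes 67.3% to 67.9% had a smaller absolute log2FC.

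The remaining EphA members were low. Epha3 (chromosome 16, 63363897 to 63684538, minus strand), another receptor of ephrin-A ligands, was 21.7, 27.5 and 27.6 in KE and 17.3, 22.1 and 12.3 in NT, and the highest NT culture was above the lowest KE culture. Its log2FC of 0.57 was the largest of the 10 members but had a 95% interval of -0.11 to 1.25 (adjusted p = 0.148 from limma). Epha7 (chromosome 4, 28813034 to 28967507, plus strand), a receptor with known roles in cortical development, was 75.5, 54.2 and 80.8 in KE and 58.6, 55.9 and 48.3 in NT. KE replicate 2, the least deeply sequenced culture, lay within the NT range, and the log2FC was 0.35 with a 95% interval of -0.11 to 0.81 (adjusted p = 0.188 from limma). At about 12 to 81 normalized counts a culture, a rise as large as that of Epha4 was within the interval of both genes, as was no change.

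Ephb2 (chromosome 4, 136374850 to 136563351, minus strand), a receptor known for its part in building excitatory synapses, had the most counts of the group. It was 7637, 8522 and 8718 in KE and 6652, 7239 and 8574 in NT, where NT replicate 3 reached the KE range. The log2FC was 0.15 with a 95% interval of -0.04 to 0.35 (adjusted p = 0.174 from limma). Without NT replicate 3, Ephb2 had a log2FC of 0.25 and an adjusted p of 0.0183 from limma, so the call changed with this 1 culture. Without NT replicate 1, the log2FC of Ephb2 was 0.07 (adjusted p = 0.534 from limma). Ephb3 (chromosome 16, 21023495 to 21042057, plus strand), a close relative, was 612, 665 and 676 in KE and 585, 639 and 701 in NT, with the NT values enclosing those of KE. Its log2FC was 0.02, and the 95% interval of -0.17 to 0.22 leaves out a rise of the size seen in Epha4 (adjusted p = 0.845 from limma).

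Of the ligands, Efnb2 (chromosome 8, 8667226 to 8711249, minus strand), which encodes a transmembrane ephrin that is also known from arteries, was 2676, 2677 and 2911 in KE and 2158, 2161 and 2353 in NT. No NT culture reached the KE range. Its mean level was 2755 ± 136 against 2224 ± 112 (both SD, n = 3), with log2FC 0.31 (95% interval 0.17 to 0.45, adjusted p = 0.00191 from limma). Efnb1 (chromosome X, 98179680 to 98205454, plus strand), the gene of craniofrontonasal syndrome, was 1244, 1392 and 1285 in KE and 1124, 1154 and 1153 in NT. The groups did not overlap, but the log2FC was only 0.19 (95% interval 0.04 to 0.34, adjusted p = 0.0344 from limma). This call was lost when any 1 of KE replicates 2 and 3 and NT replicates 1, 2 and 3 was left out, with adjusted p of 0.0565 to 0.104, and it is the least firm of the 5.

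Efna1 (chromosome 3, 89179037 to 89188449, minus strand), a lipid-anchored ligand that binds Epha2 with high affinity, was 51.5, 71.4 and 48.8 in KE and 52.6, 47.6 and 46.6 in NT. KE replicate 2 stood above the other 5 cultures, which lay close together. The log2FC was 0.20 with a 95% interval of -0.27 to 0.67 (adjusted p = 0.452 from limma). The receptor Epha2 thus passed the test and its ligand Efna1 did not, and the difference between the genes was not tested. Exons of Epha2, Epha4, Epha5, Ephb2 and Efnb2 overlap exons of antisense long noncoding RNAs, and whether reads were counted by strand is not given in the sources used here. Gm28386, the partner of Epha4, was 4.77 to 6.34 normalized counts in the 6 cultures, and both partners of Efnb2 were at most 0.989.

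**Figure D2:**
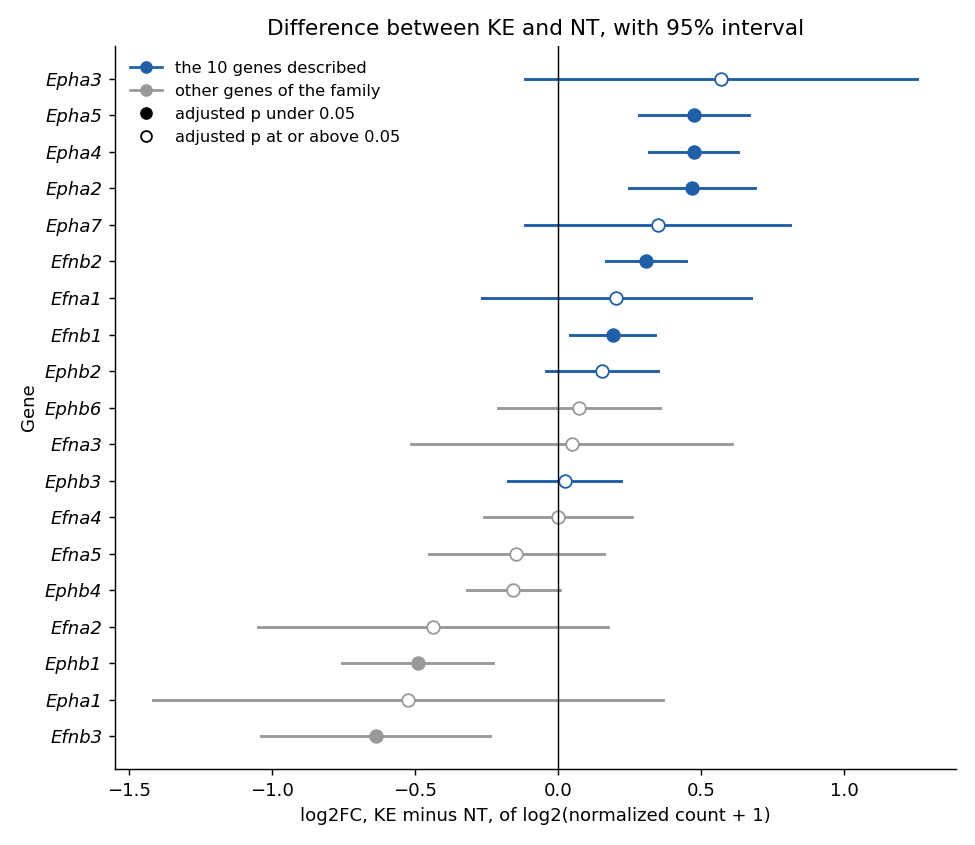
Difference between KE and NT (log2FC, x axis) for the 19 tested genes of the family, with lines for 95% intervals, filled points for an adjusted p under 0.05 from limma, blue for the 10 members and gray for the other genes. Epha2, Epha4 and Epha5 sit together at 0.47 to 0.48, and Ephb1 and Efnb3 lie below 0.

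The 250 bases before the annotated start of the canonical transcript (1 per gene, named by Ensembl) of the upregulated members are shown because these genes rose in the same cultures. They were read from GRCm39 at chr4:141028290-141028539 (plus strand) for Epha2, chr5:84565349-84565598 (minus strand) for Epha5, chrX:98179430-98179679 (plus strand) for Efnb1 and chr8:8711250-8711499 (minus strand) for Efnb2, and are written 5′ to 3′ along the gene. All 250 bases of the Efnb2 window and 68 of those of Epha5 also lie in annotated exons of other genes. The window of Epha4 contains 9 bases of an exon of another of its transcripts and is not shown. In Epha4, Ephb3 and Efna1 the canonical start lies inside the gene span given above. Capitals mark matches, on either strand, to the motifs searched.
Epha2: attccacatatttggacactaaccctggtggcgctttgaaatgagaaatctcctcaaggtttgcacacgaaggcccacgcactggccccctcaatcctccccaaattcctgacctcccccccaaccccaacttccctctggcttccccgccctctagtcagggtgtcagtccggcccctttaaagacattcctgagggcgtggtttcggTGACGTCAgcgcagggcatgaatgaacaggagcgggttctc
Epha5: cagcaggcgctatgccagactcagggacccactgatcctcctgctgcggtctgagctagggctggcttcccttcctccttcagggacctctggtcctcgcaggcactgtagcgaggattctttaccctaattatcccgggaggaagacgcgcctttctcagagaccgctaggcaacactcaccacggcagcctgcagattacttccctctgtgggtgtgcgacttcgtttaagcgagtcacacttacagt
Efnb1: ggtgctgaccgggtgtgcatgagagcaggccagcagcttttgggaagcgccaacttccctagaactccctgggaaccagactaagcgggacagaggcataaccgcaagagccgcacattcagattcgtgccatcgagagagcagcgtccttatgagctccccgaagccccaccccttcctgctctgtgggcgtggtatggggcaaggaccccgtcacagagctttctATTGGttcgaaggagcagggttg
Efnb2: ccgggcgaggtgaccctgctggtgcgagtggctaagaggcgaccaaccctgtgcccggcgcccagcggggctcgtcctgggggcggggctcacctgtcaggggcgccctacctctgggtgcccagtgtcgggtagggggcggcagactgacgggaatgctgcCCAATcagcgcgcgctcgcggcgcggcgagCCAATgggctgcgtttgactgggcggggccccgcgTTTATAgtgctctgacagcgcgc
The motifs searched were CGGAAG (ETS), TGANTCA (AP-1), TGACGTCA (cAMP response element), a pair of interferon response repeats, TTCNNNGAA (STAT), CACGTG (E-box), the CCAAT box and TATAAA (the TATA box). TGACGTCA was found in the window of Epha2, starting 41 bases before the annotated start, and 1.69% of 21770 such windows of protein-coding genes contain it. CCAAT was found in 5 of the 10 members, among them Efnb1 and Efnb2, and in 36.5% of all windows. TATAAA was found in Efnb2, 1 of the 10 members, and in 11.9% of all windows. Of the 10 members, 1 contained the ETS motif and 1 the STAT motif, in both cases Epha3, and these are in 14.3% and 7.70% of all windows. The AP-1 motif, the interferon response pair and the E-box were in no member window and are in 6.17%, 3.32% and 6.26% of all windows. The GC content of the member windows ran from 56.8% in Epha2 to 72.0% in Efnb2, above the GC content of 62.3% to 95.3% of all windows, and that of the other family windows from 46.8% to 77.6%. A match describes letters and not a binding site.

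The 12 other genes of the family were compared in the same way, and 9 of them passed the mean filter. None was upregulated, 2 were downregulated and 7 were not called, with a median log2FC of -0.16, where 26% of all tested genes were called lower in KE. The 2 of 9 downregulated genes are thus a share near that of all genes. Ephb1, a receptor of ephrin-B ligands, was 231, 220 and 207 in KE and 276, 352 and 303 in NT, with log2FC -0.49 (95% interval -0.75 to -0.23, adjusted p = 0.0056 from limma). Efnb3, the third ephrin-B gene, was 60.6, 77.5 and 78.8 in KE and 96.0, 128 and 114 in NT, with log2FC -0.64 (95% interval -1.04 to -0.24, adjusted p = 0.0128 from limma). Both genes were lower in each KE culture than in each NT culture. The call for Efnb3 was lost without KE replicate 1 (adjusted p = 0.0542 from limma) and without NT replicate 2 (adjusted p = 0.0539 from limma). The ephrin-B genes therefore did not move in 1 direction, Efnb1 and Efnb2 being higher in KE and Efnb3 lower.

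The uncalled genes of this group spanned a wide range of levels. Ephb4, the usual receptor of Efnb2, had a log2FC of -0.16 with a 95% interval of -0.32 to 0.01 (adjusted p = 0.0969 from limma). Efna4, Efna3, Efna5, Efna2 and Ephb6 had log2FC of 0.00, 0.05, -0.15, -0.44 and 0.07. Without KE replicate 1 these were 0.04, 0.14, -0.03, -0.28 and 0.13, and none passed the test. Without NT replicate 2, Efna2 passed the test with log2FC -0.71 (adjusted p = 0.0421 from limma). Epha1 had one of -0.52, and its exons overlap those of Zyx, which was 3130 to 4093 normalized counts, so that its low values of 6.25 to 14.8 are uncertain. Epha6, Epha8 and Epha10 had at most 3.11, 1.25 and 5.46 normalized counts in any culture and were not tested. Efna1, Efna3 and Efna4 lie next to each other on the minus strand of chromosome 3, 32753 bases apart between the first pair and 10422 bases between the second, and none of the 3 was called.

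Levels of different genes were compared as normalized counts per kb of annotated exon. Among receptors, Ephb2 came first, at 655 ± 45.5 per kb in KE against 591 ± 77.8 in NT (both SD, n = 3). Epha4 came next, at 317, 348 and 355 per kb in KE against 226, 256 and 254 in NT. In the order of means over all 6 cultures, they were followed by Ephb4, Ephb3, Epha2, Epha5, Ephb6 and Ephb1, and Epha7, Epha1 and Epha3 were under 10 per kb in every culture. In NT alone the means ran the other way in the last trio of that order, with Ephb1 at 44.1, Ephb6 at 40.1 and Epha5 at 36.4 per kb. With the longest transcript as the length, Epha5 at 107 per kb over all 6 cultures stood before Epha2 at 93.1, Ephb1 at 56.4 before Ephb6 at 44.4, and Epha3 at 3.77 before Epha1 at 3.52. Some neighbours in this order were not apart. In NT the values of Epha4 and Ephb4 overlapped, as did those of Epha5 and Ephb6 and those of Ephb6 and Ephb1. In KE these 3 pairs were separate, while Ephb3 overlapped Epha2, and Epha1 overlapped Epha3. Among ephrins, Efnb2 (380 ± 18.8 in KE and 307 ± 15.4 in NT, SD, n = 3) and Efnb1 (328 ± 19.2 and 287 ± 4.30, SD, n = 3) were followed by Efna4, Efna5, Efna3, Efna2, Efnb3 and Efna1. The values of Efna3 overlapped those of Efna2, and those of Efna2 overlapped those of Efnb3, in both groups, while Efnb3 overlapped Efna1 in KE and not in NT. Efna1 was last, at 16.7 ± 3.60 per kb in KE against 14.3 ± 0.928 in NT (both SD, n = 3). Exon lengths include rarely used exons, which lowers the level per kb of genes with many transcripts, such as Epha5 with 43 annotated transcripts and 20691 exonic bases.

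**Figure D3:**
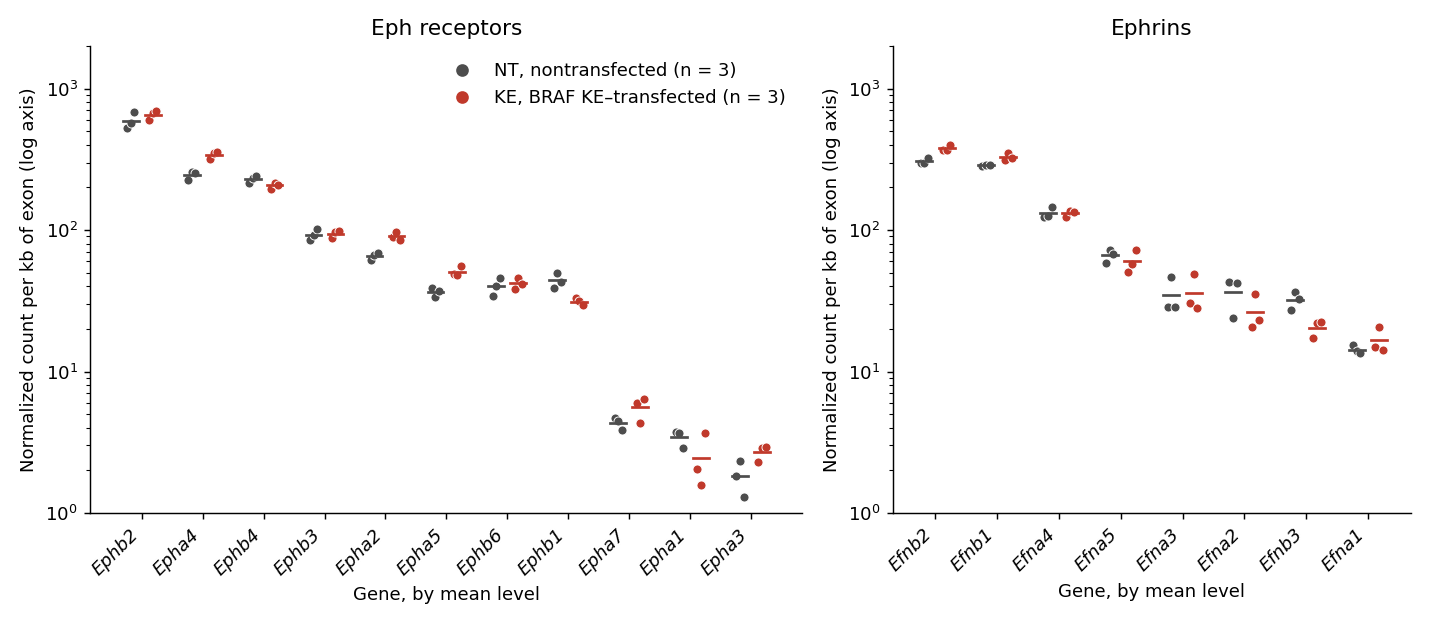
Normalized count per kb of annotated exon (log axis) of the receptors (left) and ephrins (right), in order of the mean over 6 cultures, with each point 1 culture, each line a group mean, NT in gray and KE in red. Epha6, Epha8 and Epha10, under 1 per kb, are left out. Ephb2 and Epha4 lead the receptors, and Efnb2 and Efnb1 lead the ephrins, in both groups.

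Summed over all genes of each class, the EphA level was 466, 502 and 509 per kb in KE and 336, 367 and 368 in NT, a ratio of 1.38 without overlap. The EphB level was 959, 1062 and 1066 in KE and 898, 988 and 1110 in NT, a ratio of 1.03 with overlap. EphA receptors accordingly made up 32.7%, 32.1% and 32.3% of the summed receptor level in KE and 27.2%, 27.1% and 24.9% in NT. Epha4 alone took 22.3% ± 0.159 of the receptor level in KE against 18.1% ± 0.863 in NT (both SD, n = 3). The ephrin-B level was 699, 741 and 747 per kb in KE and 607, 625 and 647 in NT, a ratio of 1.16, and that of ephrin-A was 240, 299 and 273 in KE and 270, 282 and 297 in NT, a ratio of 0.957. Ephrin-B genes held 74.4%, 71.2% and 73.3% of the ephrin level in KE and 69.2%, 68.9% and 68.6% in NT. The ratio of receptor to ephrin level overlapped between the groups, at 1.52 ± 0.0211 in KE against 1.49 ± 0.0799 in NT (both SD, n = 3). These sums rest on the genes described above and were not tested.

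**Figure D4:**
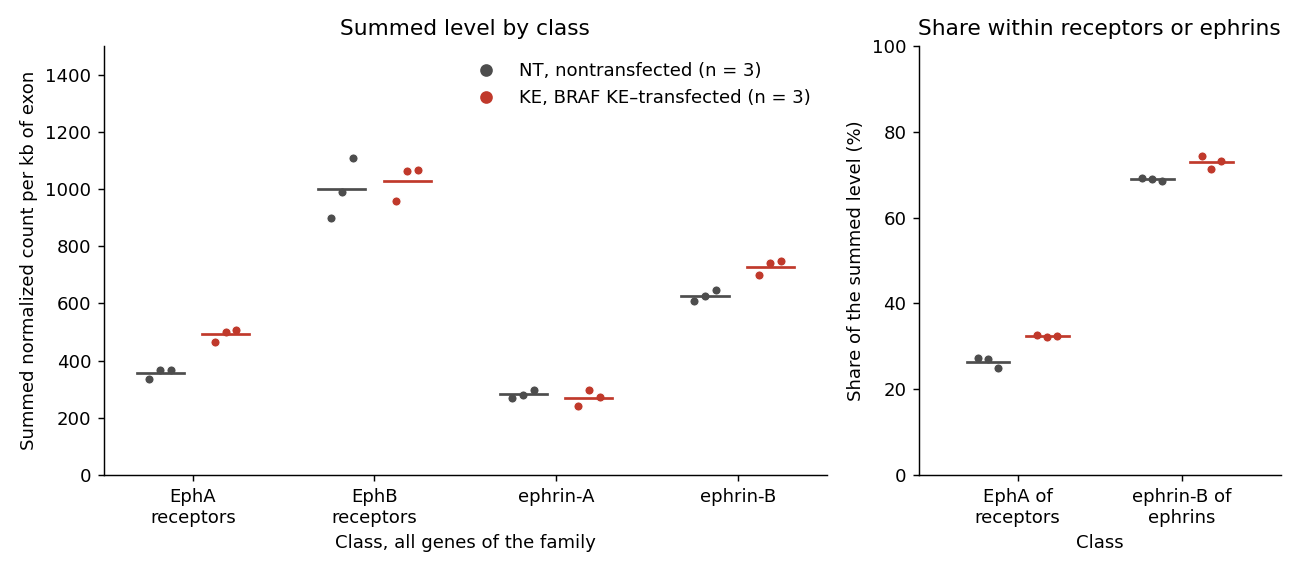
Left, summed normalized count per kb of exon of each class in each culture, and right, the share (%) of EphA in the receptors and of ephrin-B in the ephrins, with points for cultures, lines for group means, NT in gray and KE in red. The EphA and ephrin-B sums are higher in KE without overlap, and the EphB and ephrin-A sums overlap.

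Eph receptors pass signals on through adaptors and cytoplasmic kinases, ephrin-B tails bind PDZ proteins, and proteases shed or cut both partners. In 40 genes of these 4 lists, all tested, 8 were upregulated, 16 were downregulated and 16 were not called in KE, with a median log2FC of -0.06, beside 25.3% of all tested genes called higher and 26% called lower. Of 15 adaptors and phosphatases, 3 rose and 4 fell. Sla, a Src-like adaptor best known from immune cells, was 52.7, 79.0 and 52.9 in KE and 862, 979 and 569 in NT (log2FC -3.67, adjusted p = 1.73e-07 from limma). Ptpro, a phosphatase that acts on Eph receptors, had a log2FC of -1.19. The 10 microglia and macrophage markers fell beside these genes with a median log2FC of -3.28, and their part in the fall of Sla was not tested.

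Of 10 cytoplasmic kinases, 1 rose and 7 fell, where 25.3% of all tested genes were called higher and 26% lower, and the median log2FC was -0.27. Falls numbered 5 with no variance trend or without KE replicate 2, and 8 without KE replicate 3, beside 1 rise each time. Ptk2, which encodes focal adhesion kinase, had a log2FC of -0.47. PDZ proteins and other partners of the ephrin-B tail showed 2 rises and 2 falls among 7, with Pick1 at 0.56 and Grip1 at -0.61, both encoding PDZ proteins. Of 8 genes that cleave receptors or ephrins, 2 rose and 3 fell, but without KE replicate 2 or NT replicate 1 there was 1 rise and 1 fall, without KE replicate 3 there was 1 rise, and without NT replicate 2 there was 1 fall. Rhbdl2, a rhomboid protease, was 56.6, 61.3 and 78.8 in KE and 25.8, 40.9 and 48.4 in NT, which gave log2FC 0.79 (adjusted p = 0.0265 from limma), and Mmp2, a matrix metalloproteinase, had a log2FC of -0.58 (adjusted p = 0.0245 from limma). The call for Rhbdl2 was lost without KE replicate 2, KE replicate 3 or NT replicate 1 (adjusted p = 0.0502, 0.108 and 0.0917 from limma), and that for Mmp2 without KE replicate 2, NT replicate 1 or NT replicate 2 (adjusted p = 0.0785, 0.0761 and 0.0787 from limma).

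**Figure D5:**
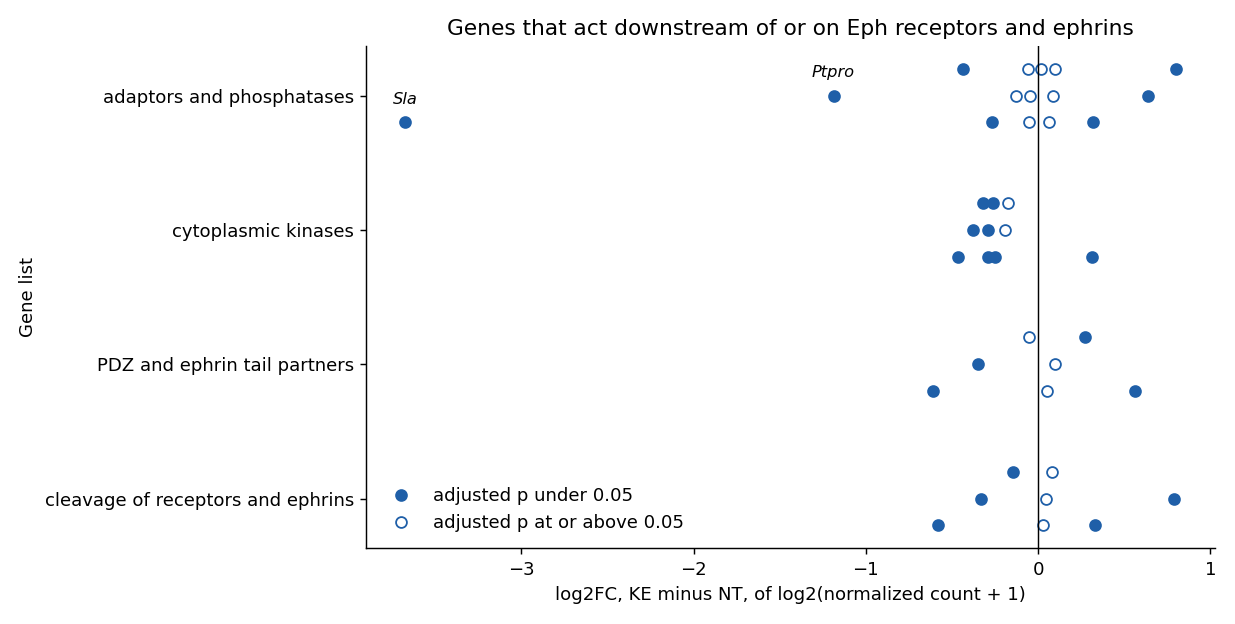
Difference between KE and NT (log2FC, x axis) of 40 genes that work with Eph receptors and ephrins, by list (y axis), with filled points for an adjusted p under 0.05 from limma. Most points lie between -1 and 1, and Sla lies lowest at -3.67.

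Markers of other cell types that carry Eph receptors or ephrins were measured in the same cultures. Of 8 endothelial markers, 5 were under a mean of 10 (Cdh5, Tek, Cldn5, Tie1 and Erg), and 2 of the 3 tested were lower in KE. Cldn5 was at 0 in all 3 KE cultures and in NT replicates 1 and 3. The endothelial sum was 241 to 303 in KE and 338 to 497 in NT. Most of it was Flt1, at a mean of 217 in KE and 337 in NT. Of 8 neuronal markers, 6 were tested, of which 1 (Tubb3) was higher and 2 (Map2 and Stmn2) lower, and Rbfox3 and Slc17a7 were under a mean of 10. The neuronal sum was 6704 to 7116 in KE and 8737 to 9395 in NT. Most of it was Map2, at a mean of 4965 in KE and 7077 in NT. All 7 tested oligodendrocyte lineage markers were lower in KE, with a median log2FC of -0.55, and Mog was under a mean of 1. Mesenchymal and pericyte markers gave 3 rises and 2 falls among 7, and neural progenitor markers 1 rise and 2 falls among 6. Of all tested genes, 25.3% were called higher in KE, 26% lower and 51.3% in either direction. The part of these cells in the levels of the 10 members was not tested.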

How the data were processed

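RNA-seq was analysed in 3 KE and 3 NT cultures, grouped by the sample labels. The authors deposited a normalized signal per gene and culture, named by them normalized counts. These are not whole numbers and are not given per gene length. Per the labels, the authors used a TruSeq stranded mRNA library, Trim Galore, STAR, Salmon and DESeq2. The values are read as Salmon estimates scaled by the authors in DESeq2. Whether they were also scaled gene by gene, for transcript length between cultures, was not tested. The labels list the build GRCh38, which cannot hold the table's mouse identifiers. The study's sequencing methods list hippocampus and spheroid samples, mention astrocytes for gene set tests, and give GRCm39 for mouse, so coordinates were taken from GRCm39 by gene identifier. They mention batch adjustment without naming a batch, and none was modelled. Whole reads could not be recovered, since a whole multiple of the most frequent low value was met, to within 0.1, by 75.2% to 77.7% of low values, so no count test was run and the counting error of the values was not estimated.

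From the deposited signal, log2(normalized count + 1) of the 15280 genes with a mean of at least 10 was compared with limma 3.58.1 in R 4.3.3 (group only, variance trend, two-sided, Benjamini-Hochberg over all tested genes). The fit was tested on simulated data. The smallest two-sided p of an exact permutation of 3 and 3 cultures is 0.1. Coordinates, exon lengths and start sites are from Gencode vM39 on GRCm39, in which 54749 of the 55357 identifiers were found. The members and lists were chosen with earlier results of these data known. Named genes are the 10 members, the other family genes, Braf, and from each reported pathway list the 2 called genes with the largest absolute log2FC and no overlap between groups, less those not reported here. Single markers and overlapping genes are named as checks, outside this rule. Alternatives were other pseudocounts (0.5 and 5), filters (none, or a mean of 50) and scalings (quantile, 75th percentile), no variance trend, the replicate number as a block, another gene length, and leaving out each culture in turn. Protein sequences are not used here, and some genes and lists of the pathway are not reported here.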

Additional observations from a re-analysis of the deposited data

How the results depend on the processing

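Epha2, Epha4, Epha5 and Efnb2 stayed higher in KE and past the threshold in all 14 alternatives, with log2FC of 0.41 to 0.54, 0.42 to 0.52, 0.41 to 0.52 and 0.27 to 0.35. Efnb1 passed in 7 of 14 (log2FC 0.14 to 0.23, adjusted p 0.0165 to 0.104 from limma). It missed with no filter on low values (log2FC 0.19, adjusted p = 0.0504) and with no variance trend (0.19, adjusted p = 0.0547), and leaving out 1 culture gave 0.14 to 0.23. The cause was not tested. Ephb2 passed with the replicate number as a block (0.15, adjusted p = 0.046), and leaving out 1 culture gave 0.072 to 0.25. Ephb3 lay between -0.04 and 0.09 and never passed. Epha3, Epha7 and Efna1 never passed either, with log2FC of 0.36 to 0.76, 0.24 to 0.52 and 0.036 to 0.345. The stricter filter removed Epha3. Upregulated members numbered 4 to 6 and downregulated members 0 throughout. Genes that cleave receptors or ephrins had 1 fall with no variance trend, in place of 3. Mmp2 also missed with quantile scaling (adjusted p = 0.0709) and with no variance trend (adjusted p = 0.0616). Of the other family genes, 1 to 2 were lower when 1 culture was left out, the lowest number without KE replicate 1. With the longest transcript as length, EphA made up 36.0% of the receptor level in KE and 29.5% in NT, and ephrin-B 77.4% and 73.7% of the ephrin level, both shares higher for each gene length in KE. All genes called numbered 6792 to 8046, the highest with the block, of which 7669 were also called without it. Deviations from the group means correlated across genes with r of 0.0589 to 0.0664 between KE and NT cultures of the same number. Between KE and NT cultures of different numbers, r was -0.0499 to -0.0105. Whether the number marks a pairing was not tested, and the main fit left it out. The intervals of Epha3, Epha7, Efna1, Ephb2 and Ephb3 span both directions, and the part of depth in this was not tested.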
